A study of Caenorhabditis elegans with 2 samples.

Results

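The 10 genes described here carry the insulin and TOR signals of the nematode Caenorhabditis elegans. They are daf-2, age-1, pdk-1, akt-1, akt-2, sgk-1, daf-18, daf-16, rict-1 and let-363, chosen by name from 19973 protein-coding genes of the Ensembl annotation of WBcel235 (ce11). For each gene, every region of 4 deposited ChIP-seq peak lists was taken whose summit lay in a gene window, from 5000 bp upstream of the first transcript start to the gene end. The windows held 3 of the 1106 regions of the list that passed the irreproducible discovery rate step (IDR list), and 26 of the 12348 regions of the list made from both replicates pooled. They also held 36 of the 15619 regions of the replicate 1 list and 33 of the 14622 regions of the replicate 2 list.

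The assay was chromatin immunoprecipitation sequencing of ETS-4, an ETS family transcription factor, with an anti-GFP antibody in whole late embryos. The embryos were collected 5 hours after synchronization by bleaching of eggs from hermaphrodites of strain OP509. This strain has the genotype unc-119(tm4063) III; wgIs509 and stably expresses ETS-4 with GFP and FLAG at its C-terminus. Both samples, replicate 1 and replicate 2, are of this single group, so no condition is compared with another, and the promoter that drives the fusion is not given in the sources used here. Chromatin came from whole animals, so regions bound in few cells and regions bound weakly in many cannot be told apart.

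In the insulin pathway of C. elegans, the receptor DAF-2 activates the phosphoinositide 3-kinase AGE-1, whose lipid product recruits the kinases PDK-1, AKT-1 and AKT-2. The lipid phosphatase DAF-18 reverses the AGE-1 step, and the AKT kinases keep the forkhead factor DAF-16 (FOXO) out of the nucleus. LET-363 is the TOR kinase, RICT-1 (Rictor) belongs to TOR complex 2, and SGK-1 is a kinase that acts downstream of that complex. The pathway is known for setting entry into the dauer larval stage, fat storage and adult lifespan, and ETS-4 itself was described as a regulator of lifespan.

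The sequences at 5 of the summits are shown because they are the strongest regions at their genes and let the letters under the signal be read. Each runs 5′ to 3′ on the strand of the gene, from the RefSeq copy of the WBcel235 assembly, with the summit at the centre except for sgk-1. Capitals mark matches, on either strand, to the 7 motifs searched, which were the repeat GAGAGA, the long ETS site CCGGAA, the ETS core GGAA, the variant core CGGAT, the forkhead site GTAAACA, the GATA site TGATAA and the GC box CCGCCC. The rict-1 stretch is chrII:13117229-13117429 (minus strand), the pdk-1 stretch chrX:1319865-1320065 (plus strand) and the akt-2 stretch chrX:14146855-14147055 (plus strand). The daf-2 stretch is chrIII:3037378-3037578 (minus strand) and the sgk-1 stretch chrX:16260135-16260265 (minus strand). The sgk-1 stretch was ended 30 bp past the summit so that it stays clear of the exon there.
rict-1: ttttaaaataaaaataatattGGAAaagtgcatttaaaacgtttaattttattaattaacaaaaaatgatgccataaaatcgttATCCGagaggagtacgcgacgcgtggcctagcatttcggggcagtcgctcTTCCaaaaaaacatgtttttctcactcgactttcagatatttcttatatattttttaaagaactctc
pdk-1: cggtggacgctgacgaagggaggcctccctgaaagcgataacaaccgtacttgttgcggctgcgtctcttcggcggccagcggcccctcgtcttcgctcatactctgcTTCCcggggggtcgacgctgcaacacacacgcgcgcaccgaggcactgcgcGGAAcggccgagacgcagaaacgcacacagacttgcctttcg
akt-2: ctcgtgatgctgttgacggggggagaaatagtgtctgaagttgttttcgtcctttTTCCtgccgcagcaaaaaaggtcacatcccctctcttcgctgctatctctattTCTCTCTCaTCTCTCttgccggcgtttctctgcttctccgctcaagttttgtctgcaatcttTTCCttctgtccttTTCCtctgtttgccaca
daf-2: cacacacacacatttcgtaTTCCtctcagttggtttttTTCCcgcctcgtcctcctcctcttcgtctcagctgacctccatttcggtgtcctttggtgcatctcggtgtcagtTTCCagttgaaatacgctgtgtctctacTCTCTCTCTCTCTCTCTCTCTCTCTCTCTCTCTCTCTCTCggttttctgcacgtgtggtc
sgk-1: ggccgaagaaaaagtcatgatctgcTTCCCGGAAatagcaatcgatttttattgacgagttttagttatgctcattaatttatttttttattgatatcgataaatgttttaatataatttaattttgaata

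In the rict-1 stretch, ATCCG, the reverse complement of CGGAT, began 16 bp before the summit, and TTCC, the reverse complement of the ETS core GGAA, began 34 bp after it. In the pdk-1 stretch, TTCC began 8 bp after the summit and GGAA began 59 bp after it. In the akt-2 stretch, TCTCTC, the reverse complement of GAGAGA, began 8 bp after the summit. A long TC repeat began 41 bp after the daf-2 summit. The sgk-1 stretch held the longer ETS site CCGGAA, 72 bp before the summit.

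IDR regions lay at 3 of the 10 genes, rict-1, let-363 and pdk-1 (95% Wilson interval 10.8 to 60.3%, which covers counting only). Over all protein-coding genes the share with such a region, in windows built the same way, was 10.6%. The windows of these genes are long, with a median of 12.5 kb against 7.03 kb over all genes, and longer windows hold more summits. Among the 4479 genes whose windows were between 8.94 and 51.3 kb, the range of the 10 genes, 15.8% had an IDR summit. The 10 genes were chosen with earlier results of these data known. The interval is therefore a description and no test against either share. A promoter window, 1000 bp upstream to 200 bp downstream of a start, held an IDR summit at 1 of the 10 genes, rict-1, against 5.34% of all genes. An IDR summit had the gene's own start as the nearest at 1 of the 10, pdk-1, against 5.22%. Counting only summits upstream of the first start or within 1000 bp of an own start left 2 of the 10, rict-1 and pdk-1, against 10.2%. Per 100 kb of window there were 1.55 IDR regions and 13.4 pooled regions at these genes, against 1.10 and 12.3 per 100 kb of the genome.

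Each of the 10 genes had at least 1 pooled region, against 56.9% of all genes and 75.7% of those with windows in the same range. The highest pooled signal of each gene fell into 3 tiers. The IDR genes had signals of 126.3, 99.8 and 91.3, while the lowest signal in the IDR list was 71.1. Below that limit stood akt-2, daf-16, daf-2 and daf-18, whose signals lay between 55.2 and 56.8, or 77.7 to 79.9% of it. At age-1, sgk-1 and akt-1 the highest signals were 40.8, 37.6 and 24.6, and the median of the pooled list was 31.2. The signal is the peak caller's value per region as the authors deposited it, and it ranks regions only within a list.

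**Figure D1:**
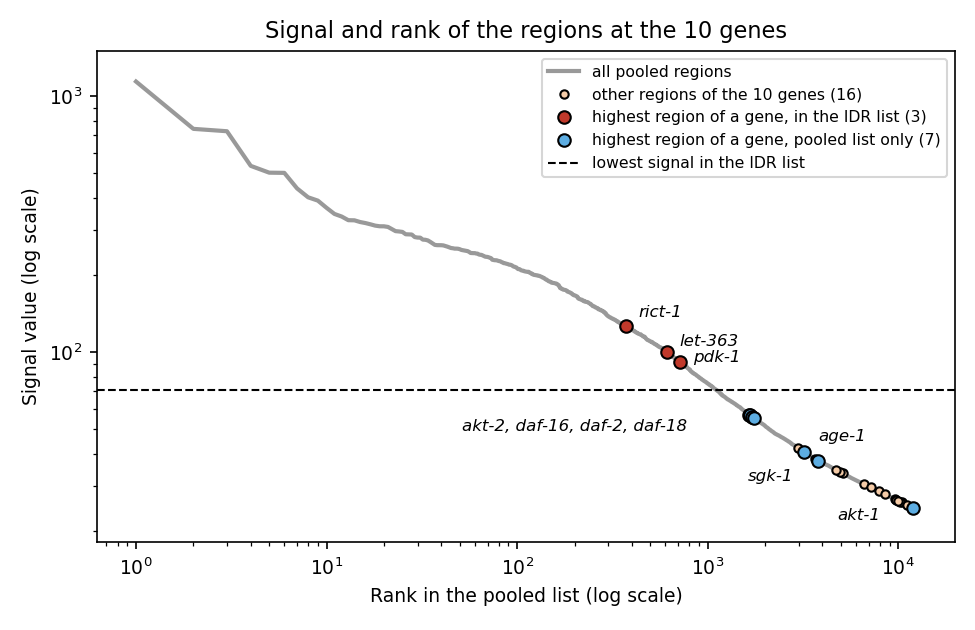
Signal value against rank in the pooled list of 12348 regions, both on log scales, with the 26 regions at the 10 genes as points and the lowest IDR signal (71.1) as a dashed line. The highest points of rict-1, let-363 and pdk-1 lie above the line, and the highest points of akt-2, daf-16, daf-2 and daf-18 lie together under it. All other points lie lower.

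The receptor gene daf-2 (WBGene00000898, III, 2994514 to 3040846, minus strand) had no IDR region in the longest of the 10 windows, 51.3 kb. It has 6 distinct transcript starts spread over 39.5 kb, and all 4 of its pooled summits lay in introns. The highest (III:3037478) had signals of 29.6 in replicate 1, 25.4 in replicate 2 and 55.6 in the pooled list, at percentiles of 89.1, 83.0 and 86.1. A percentile here is the percent of a list's regions with a lower signal. This summit lay in intron 1 of the longest transcript, 3368 bp after the first start and over the noncoding gene linc-143. The next, at 4709 bp, was also over linc-143 and was higher in replicate 2 (34.8, rank 1309 of 14622) than in replicate 1 (20.9, rank 4191 of 15619). No pooled summit lay within 1000 bp of any of the 6 starts. Replicate 1 had a region 892 bp upstream of the start of transcript Y55D5A.5e.1 (signal 20.6, percentile 71.8), which met no pooled region.

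age-1 (WBGene00000090, II, 11519328 to 11527054, minus strand) encodes the catalytic subunit of the phosphoinositide 3-kinase and had 1 region in each list except the IDR list. Its signal was 16.7 in replicate 1, 22.8 in replicate 2 and 40.8 in the pooled list. The replicates placed it far apart, at percentiles of 47.0 and 78.1. The summit (II:11522004) lay in intron 6 of the longest age-1 transcript, inside a coding exon of the nested gene Y62F5A.10 on the opposite strand and 1358 bp upstream of the shorter age-1 transcript's start. Summits in coding exons made up 0.54% of the IDR list (6 of 1106) and 14.7% of the pooled list. Just outside the window, 7761 and 7961 bp upstream of the first start, stood IDR summits with signals of 279.4 (rank 30) and 132.5, whose nearest start, 336 and 536 bp away, was that of Y62F5A.12.

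The phosphatase gene daf-18 (WBGene00000913, IV, 420011 to 425177, minus strand) has a single start and 2 pooled regions, both upstream of it. The higher (IV:426730) had signals of 29.8 in replicate 1, 23.5 in replicate 2 and 55.2 in the pooled list. It lay 1553 bp upstream of daf-18 but inside a coding exon of the neighbour garr-1, 562 bp from the start of that gene. The lower (38.2 in the pooled list) lay 28 bp from the start of Y66H1A.5 and 3928 bp from that of daf-18. Both summits were thus nearer to other genes than to daf-18. Replicate 2 also had a region 373 bp upstream of daf-18 (signal 15.1, percentile 31.3), which met no pooled region.

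Of the 3 genes for kinases that the lipid signal recruits, pdk-1 had an IDR region and the AKT genes had none. pdk-1 (WBGene00003965, X, 1321344 to 1327986, plus strand) had its IDR summit at X:1319965, 1379 bp upstream of the first start. Its signal was 46.5 in replicate 1 (rank 700), 44.9 in replicate 2 (rank 803) and 91.3 in the pooled list (rank 716). The summits of the replicates lay 37 and 30 bp from the pooled summit. This was the only 1 of the 3 IDR summits with the member's own start as the nearest, and the next gene's start, of H42K12.3, was 8357 bp away. The 201 bp around it had a GC content of 64.7%, a value reached by 4 of the 1106 IDR summits, where the mean was 45.0% (SD 7.69).

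Besides this region, pdk-1 had 3 pooled regions with signals from 26.0 to 28.5. The first overlapped the IDR region and met the same replicate regions. The other 2, in an intron and in the 3′ UTR, were each met by a region of a single replicate.

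akt-2 (WBGene00000103, X, 14147700 to 14152070, plus strand) had its highest summit at X:14146955, 745 bp upstream of its only start and within its promoter window. The signal was 21.3 in replicate 1, 33.02 in replicate 2 and 56.8 in the pooled list. Replicate 2 placed it at rank 1460 and replicate 1 at rank 3962. The next protein-coding start, of ceh-89, was 5009 bp away. A weaker pooled region in an intron (26.4) was met by neither replicate.

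akt-1 (WBGene00000102, V, 10248905 to 10252845, plus strand) had the lowest pooled signal of the 10 genes. Its 1 pooled region, 660 bp upstream of the first start, had a signal of 24.6 (rank 11875 of 12348). Replicate 1 had no region there, and replicate 2 had a pair of regions that met it, with signals of 16.3 and 13.9 and summits 440 and 727 bp upstream of the first start. Replicate 1 had a region of 24.7 (rank 2662) 1896 bp upstream, which met no pooled region. The replicates ordered the highest regions of the AKT genes differently. Replicate 1 had akt-1 (24.7) above akt-2 (21.3), and replicate 2 had akt-2 (33.02) above akt-1 (16.3).

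sgk-1 (WBGene00004789, X, 16254842 to 16262122, minus strand) has a transcript start on each side of a first intron of 1901 bp. Its 1 pooled summit (X:16260165) lay in that intron, 37 bp upstream of the downstream start and 1957 bp from the first start. The signal was 22.04 in replicate 1 (rank 3599), 14.9 in replicate 2 (rank 10467) and 37.6 in the pooled list. Of the highest regions at the 10 genes met by both replicates, it had the widest gap between them, with percentiles of 77.0 and 28.4.

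**Figure D2:**
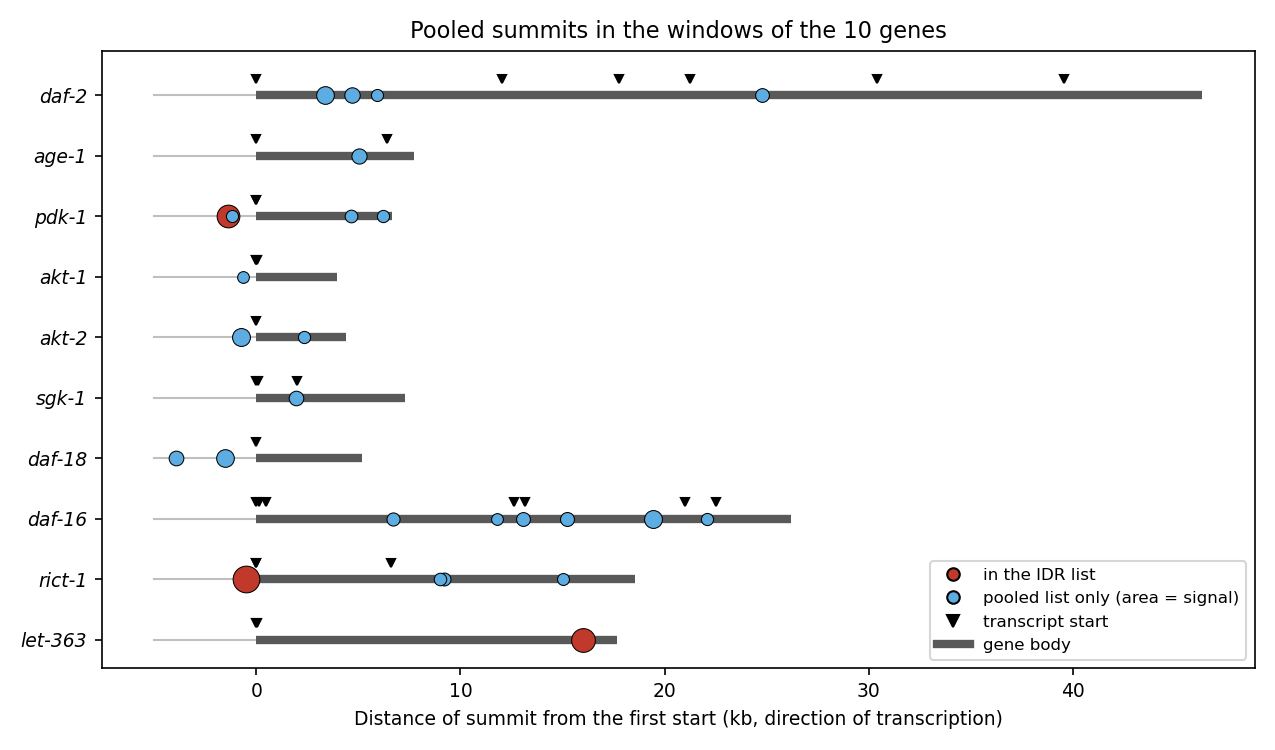
Distance of each of the 26 pooled summits from the first start of its gene, in kb along the direction of transcription, with circle area proportional to signal. The IDR summits (red) lie upstream of pdk-1 and rict-1 and 16018 bp into let-363, and the summits at daf-16 and daf-2 lie inside the gene bodies.

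The forkhead factor gene daf-16 (WBGene00000912, I, 10750498 to 10776703, plus strand) has 7 distinct starts and had the most pooled regions, 6, with none in the IDR list. Its window of 31.2 kb was longer than those of the other genes except daf-2, and longer windows hold more summits. The first 3 starts lie within 462 bp, and the others lie 12605, 13156, 21010 and 22501 bp after the first. No pooled summit lay upstream of the first start, and the first along the gene stood 6675 bp after it. The highest summit (I:10769929) had signals of 22.8 in replicate 1, 34.7 in replicate 2 and 56.7 in the pooled list. It stood 1579 bp upstream of the start of transcript R13H8.1a.1, in an intron of 7676 bp of the longer transcripts.

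Pooled summits also stood 819, 110 and 435 bp upstream of 3 of the internal starts of daf-16. Their signals were 24.6, 33.96 and 26.1. The first was met by neither replicate, the second by replicate 1 alone (20.4) and the third by both (18.1 in replicate 1 and 14.3 in replicate 2). The summits of the remaining 2 regions (30.5 and 34.6) lay 5930 and 2056 bp from a start.

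let-363 (WBGene00002583, I, 5245743 to 5263424, plus strand), the TOR kinase gene, had an IDR region far from its own starts. The summit (I:5261761) lay in intron 29 of a 32-exon transcript, an intron of 571 bp, 16018 bp after the first start. Its signal was 55.7 in replicate 1 (rank 459), 41.9 in replicate 2 (rank 913) and 99.8 in the pooled list (rank 609), and the replicate summits lay 3 and 1 bp from the pooled one. The nearest start, 1933 bp away, was that of vep-1. Introns held 19.5% of all IDR summits, and 16.8% of IDR summits were at least 1933 bp from any start. None of the 7 motifs lay within 100 bp of it, which was so at 8.14% of IDR summits. No pooled region lay in the 5000 bp upstream of let-363, where the highest replicate regions had signals of 22.9 in replicate 1 (percentile 79.3) and 18.5 in replicate 2 (percentile 61.8).

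The Rictor gene rict-1 (WBGene00009245, II, 13098239 to 13116810, minus strand) had the highest signal of the 10 genes. Its IDR summit (II:13117329) lay in the intergenic stretch shared with gfm-1, a gene for a mitochondrial translation elongation factor that is transcribed in the opposite direction. It stood 519 bp upstream of the first rict-1 start and 154 bp upstream of the gfm-1 start, in the promoter windows of both. Promoter windows of more than 1 gene held 28.0% of IDR summits. The signal was 61.2 in replicate 1 (rank 361), 67.9 in replicate 2 (rank 373) and 126.3 in the pooled list (rank 372). These ranks were the closest between replicates of any highest region at the 10 genes. The GC content was 31.3%, and 4.07% of IDR summits were as low.

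Within the rict-1 gene body, 2 weak pooled summits (29.5 and 27.7) lay 410 and 202 bp upstream of pqn-32, a gene nested in rict-1. Another (25.2) lay in a coding exon of rict-1.

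In 7 of the 10 genes a region in the upper 20% of the pooled list was present, against 19.5% of all genes and 1344 of the 4479 genes with windows in the same range. This limit was chosen after the values were seen. Ranked among all genes by highest pooled signal, with genes that had no region placed last, the 10 genes had a median percentile of 85.3, and 9 of 10 were above the median gene. This ranking was not matched for window length, and the windows of the 10 genes are longer than most. The genes were named with results of these data known, so these shares are descriptions.

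The IDR list comes from a step that compares the replicates. It holds as many regions as the pooled list has at or above its lowest signal, 1106, so membership amounts to a cut on pooled signal. A high pooled signal draws on both replicates, so close ranks there are favoured by that choice and are given as a description. Percentile gaps between replicates still reached 58.5 points among all IDR regions. All 3 IDR regions were among the 1106 regions of highest signal in replicate 1 and in replicate 2, as were 72.2% of all IDR regions. Their percentiles differed by 0.24 to 3.31 points between replicates, where the median over all IDR regions was 1.35. The 4 regions just under the limit differed by 6.15 to 15.4 points, against a median of 9.11 over all regions of that tier. None of the 4 was among the top 1106 of either replicate, and 22.3% of all regions of that tier were in the top of at least 1. Replicate 2 gave the higher percentile at akt-2 and daf-16, and replicate 1 gave it at daf-2 and daf-18.

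**Figure D3:**
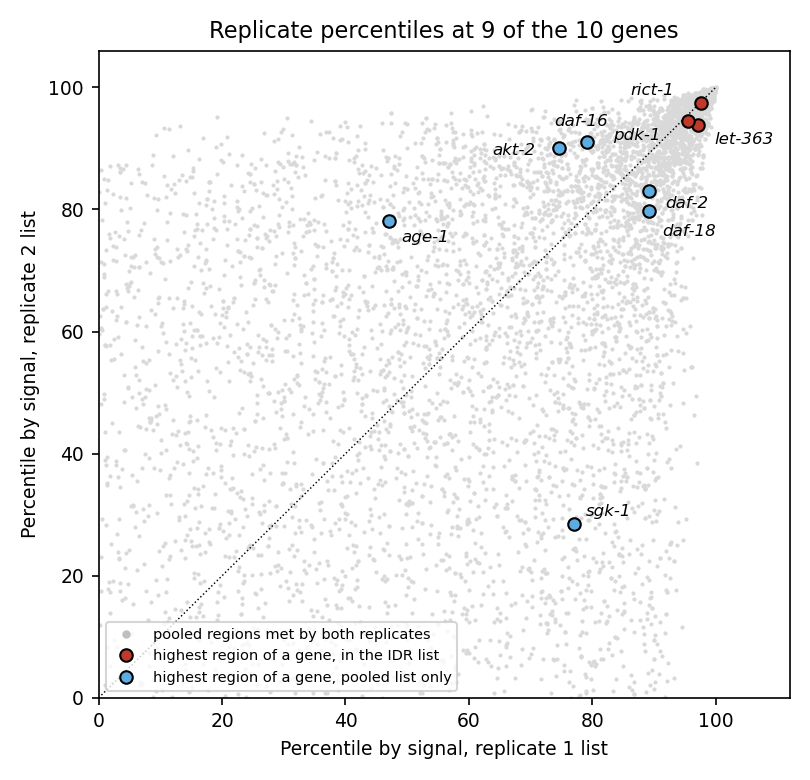
Percentile by signal in the replicate 1 list (horizontal) and the replicate 2 list (vertical) for the highest pooled region of 9 genes, over all pooled regions met by both replicates (grey). rict-1, let-363 and pdk-1 lie near the diagonal at 93.8 or more on both axes, while age-1 (47.0 and 78.1) and sgk-1 (77.0 and 28.4) lie far from it.

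A pooled region that overlapped regions of both replicates was present at 9 of the 10 genes, akt-1 being the exception, against 35.9% of all genes and 53.0% of those with windows in the same range. Of the 26 pooled regions, 17 (65.4%, 95% Wilson interval 46.2 to 80.6%) overlapped a region in both replicate lists by at least 1 bp, against 48.9% of all pooled regions. Overlapping pooled regions upstream of pdk-1 and near pqn-32 in rict-1 met the same replicate regions. The interval treats all regions as independent, so it is a description only. In the other direction, 3 of 26 (11.5%) met neither replicate, against 4.69% of all pooled regions. By the closer measure of summits within 100 bp, it was 10 of 26 (38.5%) against 34.3%. Of the regions under the upper 20%, 10 of 19 (52.6%) met both replicates, against 36.7% of all such regions. Of the replicate 1 regions in the windows, 18 of 36 met no pooled region, against 40.5% of the whole list. In replicate 2 it was 12 of 33 (36.4%), against 39.3%. The best of these ranked 2662 in replicate 1, at akt-1, and 5589 in replicate 2, at let-363.

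By position, 17 of the 26 pooled summits lay in an intron of the gene and 7 upstream of its first start, with 1 in a coding exon and 1 in a 3′ UTR. In 7 of 26 the summit was in a promoter window of the gene, and in 16 of 26 the nearest protein-coding start was the gene's own. Introns of any coding gene held 61.5% of the 26, against 19.5% of IDR and 30.2% of pooled summits. The 26 were taken from windows that include whole gene bodies, whereas the other 2 sets span the genome, so these shares are not like for like. daf-2 and daf-16, both with long introns, had 10 of the 26. A noncoding gene lay at 4 of the summits, linc-143 at 2 of them.

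The motifs gave no uniform picture. The ETS core GGAA was within 100 bp of 21 of 26 summits (80.8%), against 81.6% of IDR and 85.8% of pooled summits. CCGGAA was at 1 of 26, sgk-1, against 5.79% and 7.31%. GAGAGA was at 8 of 26 (30.8%), against 39.4% and 23.2%, and these 8 were at daf-2 (3), daf-16 (2), rict-1 (2) and akt-2 (1). The forkhead site GTAAACA, which DAF-16 binds, was at 0 of 26, against 2.98% and 2.94%. The GATA site TGATAA was at 6 of 26 (23.1%), against 7.32% and 15.1%. These 6 regions had pooled signals from 24.6 to 38.2, all under the upper 20% of the pooled list, and none was an IDR region. Every CCGGAA match holds a GGAA match, so these counts are not independent.

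**Figure D4:**
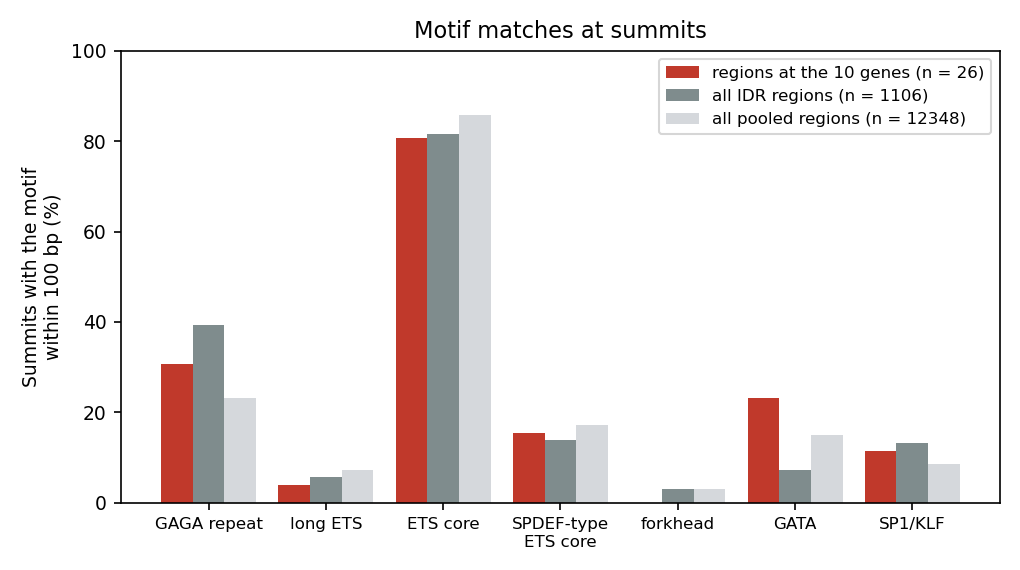
Percent of summits with a match within 100 bp to each of the 7 motifs, for the 26 regions at the 10 genes, all IDR regions and all pooled regions. The ETS core stands at 80.8, 81.6 and 85.8%, and the GATA site at 23.1, 7.32 and 15.1%.

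Other genes of the pathway were taken from 4 lists of 94 genes, of which 15 (15.96%) had an IDR summit in the gene window, against 10.6% of all genes. No gene of the 16 insulin-like ligands had an IDR region, and 5 had a pooled region (31.2%, against 56.9% of all genes), in windows with a median of 5.80 kb. Adaptors, phosphatases and regulators of DAF-16 had longer windows, with a median of 9.21 kb against 7.03 kb over all genes. They had an IDR region at 8 of 26 (30.8%), against 10.6% of all genes without matching for window length. The highest were at ftt-2, a 14-3-3 protein that binds DAF-16 (signal 218.3, 575 bp upstream of its start), ppfr-1 (177.0, nearest to rtcb-1) and ddl-1 (171.8, nearest to zyg-1). aap-1, the regulatory subunit that partners AGE-1, followed with a summit of 114.8 that lay 1670 bp upstream of it but 31 bp from the start of use-1. The next were smk-1 (89.8) and math-33 (87.7), whose summits were nearest to vps-60 and erfa-3. The remaining genes of the 8 had lower signals (83.7 and 78.9) and summits nearest to their own starts.

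The windows of 31 genes of the TOR complexes and their inputs and outputs had a median of 7.85 kb. Of these genes, 5 (16.1%) had an IDR region, against 10.6% of all genes. The highest, 401.4, lay 2322 bp upstream of clk-2 and 1 bp from the start of cux-7. lmtr-3, a subunit of the Ragulator complex, had a summit of 199.6 at 41 bp upstream of its own start. lgg-1, an autophagy gene, had a summit of 117.6 at 888 bp. rheb-1, the GTPase that activates TOR, had a summit of 81.4 at 325 bp, nearer to spk-1, and aak-2, a catalytic subunit of AMP-activated kinase, had one of 73.3 in an intron.

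Stress and metabolic genes known as DAF-16 targets had windows with a median of 6.55 kb. Of 21 such genes, 2 (9.52%) had an IDR region, near the share of all genes. They were icl-1 (88.4, nearest to srh-2) and hsp-16.2 (73.3, nearest to hsp-16.41). Among 7 genes linked to ETS-4 in the literature, kgb-1 (133.2) and cebp-1 (127.6) had an IDR region, 28.6% against 10.6% of all genes. The windows of these 7 genes had a median of 9.4 kb. The kgb-1 summit was 652 bp from the start of kgb-1 and 180 bp from that of T07A9.12.

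Facts of the series touch these values as follows. The lists hold no read counts, so library depth is unknown. Signals ran from 71.1 to 1137.1 in the IDR list and from 24.2 in the pooled list. The locus of ets-4 had no pooled region in its window, and unc-119 had 4, with signals from 24.9 to 47.5. daf-2, on chromosome III with its 256 IDR regions, had none of them.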

How the data were processed

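The data were ChIP-seq peak lists of 2 replicates of 1 group. Per the readme texts the authors deposited, a replicate list rests on the alignments of 1 replicate with a control, and the pooled list on those of both. The IDR list was derived from these. Which aligner and peak caller were run is not given in the sources used here. Each region has a signal that the authors deposited in column 7 and a −log10 q in column 9, also as the authors deposited it. Per the labels, the replicate and pooled lists hold background beside peaks as input for the IDR step, so presence in them alone says little. The ce10 lists and the control library were not used here.

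Summits were placed on genes of Ensembl release 115 with Python 3.11.15 and pandas 2.3.3, as 1-based ce11 positions. The backgrounds are all protein-coding genes, and those whose windows were as long as the range of the 10 genes. Motifs were searched on both strands within 100 bp of a summit. Where several replicate regions overlapped a pooled region by at least 1 bp, the one of highest signal was used. The window and motif counts were tested on simulated data. Replicates may differ in depth, which is unknown, so they were set side by side as ranks and percentiles within a list, and no test between groups was possible.

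The 10 genes, the pathway lists and the motifs were chosen with earlier results of these data known. The genes named besides the 10 are those with the nearest start to a described region, and every listed pathway gene with an IDR region or, beyond 6 in a list, the 6 of highest signal. Alternatives were other windows, assignment to the nearest start, the upper 50% of the IDR list, each replicate alone, stricter overlaps and other motif windows.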

Additional observations from a re-analysis of the deposited data

How the results depend on the processing

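The count of 3 genes with an IDR region held with windows of 2000 bp upstream (7.35% of all genes). It became 4, with age-1 added, with 10000 bp (15.2% of all genes). It fell to 1 with promoter windows alone (rict-1), to 1 with assignment to the nearest start (pdk-1) and to 1 in the upper 50% of the IDR list (rict-1). Without either replicate it was 3 in each case, the same genes: let-363, pdk-1 and rict-1. A single replicate has no IDR step, and all 3 regions were among the 1106 of highest signal in each replicate. The counts without a replicate therefore add no separate support. Over all genes the share of 10.6% became 5.34% with promoter windows, 5.22% with the nearest start and 5.72% in the upper 50% of the list, and 10.2 to 10.4% without a replicate. Restricted to summits upstream of the first start or within 1000 bp of an own start, a setting chosen after seeing the data, the count was 2 of 10 genes, against 10.2% of all genes. The share of pooled regions that met both replicates was 50% with a reciprocal overlap of 50%, against 42.3% of all pooled regions, and 38.5% with summits within 100 bp, against 34.3%. The median percentile of the highest regions (86.3) was 86.5 without replicate 1 and 89.1 without replicate 2, the second over 9 genes because akt-1, the lowest, had no replicate 1 region there, and 69.1 over the 5 genes with a pooled summit in a promoter window. GGAA was at 17 of 26 summits (65.4%) within 50 bp, against 55.2% of IDR and 62.4% of pooled summits, and at 25 (96.2%) within 250 bp, against 98.1% and 98.9%. Of 24 percentiles of single genes, 8 were counted as moved, though not all by more than the gap between the replicates. At sgk-1 the percentile went from 69.1 to 28.4 without replicate 1, where the replicates stood at 77.0 and 28.4. At akt-1, which had no replicate 1 region there, it went from 3.83 to 45.0. At rict-1 it went from 97.0 to 97.4 without replicate 1. Of 12 counts of the other motifs, 10 moved by more than 1.5 times, but longer windows hold more matches and the background shares changed too. CCGGAA was below both backgrounds within 100 bp (3.85%, against 5.79% of IDR and 7.31% of pooled summits). Within 250 bp it was above both (23.1%, against 14.9% and 17.1%). TGATAA was above both within 50 bp (11.5%, against 2.08% and 8.04%) and within 250 bp (46.2%, against 28.4% and 34.9%). No paired analysis was possible because the design has a single group. Depth is unknown, so no limit from it can be given for regions that are missing from a list. The share of genes with an IDR region has a wide interval at 10 genes, 10.8 to 60.3%. The share was 15.8% of genes with windows in the same range and 10.6% of all genes. The 10 genes were chosen with earlier results known, so the interval is no test against either share.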
